A study of Mus musculus with 6 samples.

Results

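Cd36, Isg20 and Selenbp1 are 3 of the 5294 genes measured across 6 mouse tissue sections, and they were chosen because they had been grouped as late erythroid genes on earlier readouts of the same data. Their raw counts were taken in every section whose panel holds them and set against the count of Slc4a1 in the same cell, the area of the nucleus, the leading markers of cells without Slc4a1, and phenylhydrazine (PHZ) treatment. Slc4a1 encodes band 3, the anion exchanger of the red cell membrane, and its transcript accumulates as erythroblasts mature. In these data Isg20 was higher at each step of Slc4a1 in 6 of 6 sections, though within counting error at each step of 1 of them. Cells without Slc4a1 were of mixed lineages. In the P8 marrow and the untreated spleen, the erythroid-led ones among them held more Isg20 than cells with 1 to 4 Slc4a1. Among Slc4a1-rich cells Cd36, as a share of transcripts, was higher in small than in large nuclei in the sections with enough counts. On the smaller gene panel it was higher still in endothelial-led cells without Slc4a1, and in the untreated spleen in fat-led cells. Selenbp1 was higher in erythroid-led cells with Kit than in those without and higher in large than in small nuclei. In the E14.5 liver alone it was lower in Slc4a1-rich cells than in cells without Slc4a1. The name late rests on earlier readouts by Slc4a1 and nucleus area, so these orders describe the members. For Selenbp1 the values by Kit and by nucleus area in 4 of 4 sections, and by Slc4a1 in the E14.5 liver, went against that name. In the other 3 sections its level was higher in Slc4a1-rich cells than in all cells without Slc4a1, which were of mixed lineages. The erythroid-led cells among those without Slc4a1 held more Selenbp1 than any Slc4a1 class there. In the untreated spleen that lead over the richest class was within counting error.

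Each condition was 1 section of 5 µm from wild-type C57BL/6 mice. The sections were fetal liver at embryonic day 14.5 (E14.5) and 13.5 (E13.5), femoral bone marrow at postnatal day 8 (P8), bone marrow of an 89-week-old mouse (aged), untreated adult spleen, and spleen after PHZ at 40 mg/kg given intraperitoneally 2 times a day for 2 days. PHZ lyses red cells and drives stress erythropoiesis in the spleen. The methods describe vehicle injection for control mice, whereas the labels of the untreated spleen name only an adult wild-type animal. The E14.5 liver, the P8 marrow and both spleens came from the same run and a smaller gene panel, with both spleens on one slide. The E13.5 liver and the aged marrow came from a later run with a larger panel and another segmentation, and that panel holds Cd36 and Isg20 but not Selenbp1. All sections were cut from paraffin blocks of fixed tissue. The leg bones of the aged mouse were first embedded in gelatin and cut frozen to free the marrow from bone, a step the other tissues did not have.

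CD36 is a membrane receptor that takes up long-chain fatty acids and binds modified lipoproteins, and it is known from capillary endothelium, fat, muscle, macrophages, platelets and erythroid precursors. ISG20 is an interferon-induced exonuclease that degrades single-stranded RNA. SELENBP1 is a selenium-binding protein with methanethiol oxidase activity, abundant in liver and in red cells. Erythroblasts lose the stem cell factor receptor Kit early, fill with hemoglobin, stop dividing while the nucleus condenses, and finally expel it.

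The promoter windows of the 3 genes are shown because their levels ran in different directions over the same groups of Slc4a1-rich cells. The letters are the RefSeq sequence on GRCm38.p6 directly upstream of an annotated start, the first in coordinate order that the reference table gives for each gene, read 5′ to 3′ on the gene's strand, and capitals mark a match to CACCC. Cd36 lies on the minus strand of chromosome 5 and this window falls within the annotated span of the gene, which runs from 17781690 to 17888959, so it does not lie before its outermost start. Isg20 lies on the plus strand of chromosome 7 and Selenbp1 on the plus strand of chromosome 3. Windows of 250 bases were searched for motifs. That of Isg20 runs past the outermost start of the gene at 78913396, so only the 222 bases before this position are printed.
Cd36, chr5:17835897-17836146: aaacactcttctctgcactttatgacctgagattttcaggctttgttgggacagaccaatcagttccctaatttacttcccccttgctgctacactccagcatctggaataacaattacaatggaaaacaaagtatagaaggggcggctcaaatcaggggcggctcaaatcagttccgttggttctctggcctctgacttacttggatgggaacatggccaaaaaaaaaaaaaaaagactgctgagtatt
Isg20, chr7:78913174-78913395: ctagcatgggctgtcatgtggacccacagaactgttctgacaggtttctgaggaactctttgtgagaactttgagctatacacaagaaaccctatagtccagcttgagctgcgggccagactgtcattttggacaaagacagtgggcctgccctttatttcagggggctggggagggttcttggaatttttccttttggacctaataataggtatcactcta
Selenbp1, chr3:94932833-94933082: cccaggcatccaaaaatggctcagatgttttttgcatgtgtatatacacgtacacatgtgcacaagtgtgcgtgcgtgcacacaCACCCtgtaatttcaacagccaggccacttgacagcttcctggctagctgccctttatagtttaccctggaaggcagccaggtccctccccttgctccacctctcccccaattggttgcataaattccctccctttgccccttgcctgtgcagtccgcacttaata
Both strands were searched for the motif AGATAA of GATA factors and its forms that start with T, end in G or do both, for the CACCC box, and for the core of the interferon-stimulated response element. Of 32851 promoter windows of mouse genes, 26.5% held the GATA motif, 52.0% CACCC and 2.98% the interferon motif. The windows printed above for Cd36 and Isg20 held none of the 3, and that of Selenbp1 held 1 CACCC 166 bases before the start. Farther inside the gene, the 2nd start of Isg20 had CACCC on the reverse strand 67 and 60 bases upstream, and the 3rd start had it 14 bases upstream. The 3rd start also had AGATAA 33 bases upstream, in capitals here.
Isg20, chr7:78914192-78914217: gtggcactggAGATAAtgggcagggc
A match describes these letters only, and the data hold no measurement of binding at any of them.

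Depth set what could be compared. The sections held between 5254 and 140707 cells with at least 5 detected genes. All outlined cells, kept or not, held between 1384795 and 20952143 gene transcripts per section, with medians of 60 to 190 transcripts per cell. Levels are given in CPM, the summed counts of a gene scaled to a common total of gene transcripts in the same cells, with exact Poisson intervals at 95% confidence that cover counting error only. The 3 genes were read by different numbers of probe sets (8 for Cd36, 3 for Isg20 and 8 for Selenbp1 on the smaller panel, 2 each for Cd36 and Isg20 on the larger), so that levels were compared within a gene and a panel and never between genes. With 1 section per condition no comparison could be tested, and the range over 4 quadrants of a section is given as the spread within it. The most abundant negative control probe reached 0.722 to 7.44 CPM per section, and pairs of sections shared 0 to 6 cell names. As a check of the tissue, the 8 hepatocyte markers summed to 47197 CPM in the E14.5 liver and 413 in the P8 marrow, while only 1 of the 8 was on the panel of the E13.5 liver.

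Cd36 was lowest in the fetal liver and highest in the spleens. It was at 2263 CPM in the E14.5 liver, 7670.5 in the P8 marrow, 10252 in untreated spleen and 10533 after PHZ. The quadrants of the liver, 1842 to 2499.9, lay below all others, those of the P8 marrow (6338 to 9219.8) overlapped those of the PHZ-treated spleen, and those of the spleens overlapped each other. At least 1 Cd36 transcript was in 23.6%, 42.9%, 42.4% and 51.7% of cells in the same order.

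Isg20 had another order. It was at 733 CPM in the E14.5 liver, 2665 in the P8 marrow, 749 in the untreated spleen and 4094 in the PHZ-treated spleen. The quadrants ran from 452 to 858 in the liver and from 541 to 839 in the untreated spleen, so these did not differ beyond their spread, while the P8 marrow (1545 to 4282) and the PHZ-treated spleen (2642 to 5131) lay above both and overlapped each other. Selenbp1 had its highest level in the E14.5 liver, at 3885 CPM, with quadrants of 3432 to 4329 that lay above those of every other section. It reached 1749 in the P8 marrow, 1166 in the untreated spleen and 2289.6 in the PHZ-treated one. The quadrants of the P8 marrow, 1292 to 2360.3, overlapped those of both spleens.

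On the larger panel, Cd36 was at 182 CPM (160.2 to 206) in the E13.5 liver and 743 in the aged marrow, and Isg20 at 91.7 and 1126. These sections also had higher levels in marrow than in fetal liver for both genes. Their values were not set against the smaller panel, because probes, totals and segmentation differ.

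**Figure D1:**
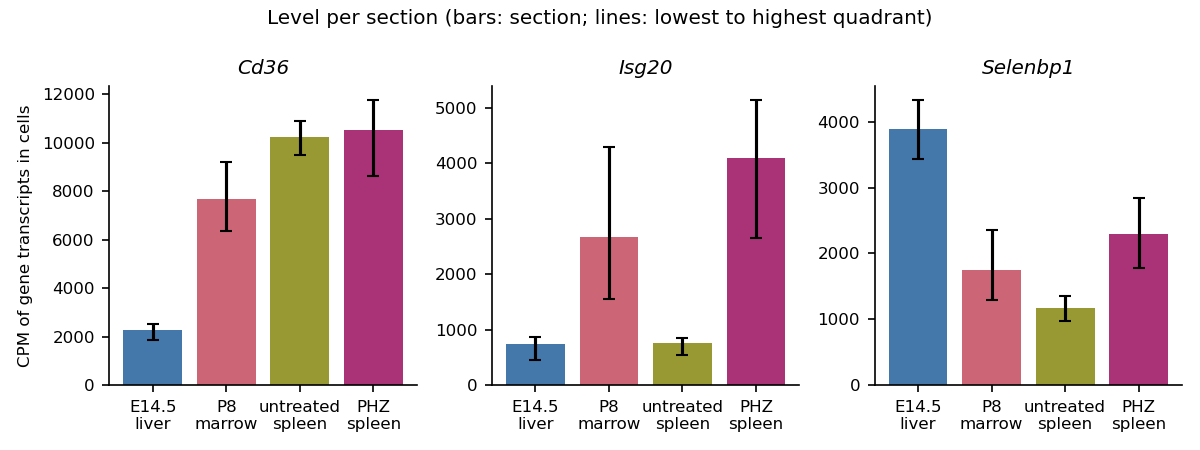
CPM of Cd36, Isg20 and Selenbp1 in the 4 sections of the smaller panel, where a bar is the whole section and a line runs from the lowest to the highest of its 4 quadrants. Cd36 climbs from 2263 CPM in the E14.5 liver to 10533 in the PHZ-treated spleen, Isg20 is highest in the PHZ-treated spleen and Selenbp1 in the E14.5 liver.

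Cells were next split by their own Slc4a1 count into those with 0, 1 to 4, 5 to 9 and 10 or more transcripts. These classes are part of how the genes were chosen, so their levels are a description. Cells with 10 or more made up 54.1% of the E14.5 liver, 25.1% of the P8 marrow, 0.786% of the untreated and 21.3% of the PHZ-treated spleen, 9.35% of the E13.5 liver and 2.35% of the aged marrow.

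Isg20 was higher at every step of Slc4a1 in all 6 sections. Across the 4 classes it went from 216 through 414 and 627 to 868 CPM in the E14.5 liver. In the P8 marrow it went from 278 through 1421 and 3818 to 5049.6, the largest ratio to cells without Slc4a1. It went from 519 through 1465 and 3312 to 4381 in the untreated spleen, and from 866 through 2369 and 5736 to 6826 in the PHZ-treated spleen. The aged marrow repeated this with 429.8, 1903, 3266 and 3444 CPM, and the E13.5 liver had 50.9, 86.6, 123 and 159.6, from 22 to 45 counts per class. Intervals of neighboring classes overlapped at each step in the E13.5 liver and at the last step in the aged marrow. Cells with 10 or more Slc4a1 thus held 18.1 times the Isg20 level of cells with none in the P8 marrow (16.6 to 19.8), 8.44 times in the untreated spleen, 8.01 in the aged marrow, 7.88 in the PHZ-treated spleen, 4.01 in the E14.5 liver and 3.13 (1.74 to 5.72) in the E13.5 liver. Among all genes with at least 50 counts, this placed Isg20 15th of 472 in the E14.5 liver, 15th of 459 in the P8 marrow, 20th of 473 in the untreated spleen and 18th of 466 in the PHZ-treated one. The cells without Slc4a1 differ between sections, so these ratios do not rank sections by a rise within the erythroid lineage. Of 15806 in the P8 marrow, 7381 were led by stromal, 3645 by cartilage, 1541 by skeletal muscle and 362 by erythroid markers. Erythroid-led cells without Slc4a1, given further on, held more Isg20 than that whole class in each section of the smaller panel. They held less than the richest class, but more than the class of 1 to 4 in the P8 marrow and the untreated spleen. In these sections the first step thus does not hold against erythroid-led cells alone. Cells with at least 50 transcripts were then thinned to 50 and the others left out. This kept 12583 of 15806 cells without Slc4a1 in the P8 marrow and 56266 of 106603 in the aged marrow. The share of thinned cells with Isg20 still ran from 1.05% to 22.3% in the P8 marrow and from 4.29% to 27.8% in the PHZ-treated spleen. Before thinning, and over all cells, it ran from 2.62% to 52.6% and from 6.81% to 64.7%. The thinned share ran from 0.969% to 4.38% in the E14.5 liver, from 2.56% to 19.3% in the untreated spleen and from 1.88% to 17.5% in the aged marrow. In the E13.5 liver it was 1.09% at 5 to 9 Slc4a1 and 1.02% at 10 or more. As counts per cell the outer classes lay farther apart. From none to 10 or more Slc4a1, Isg20 went from 0.0312 to 0.175 in the E14.5 liver and from 0.0328 to 0.813 in the P8 marrow. It went from 0.0472 to 0.967 in the untreated and from 0.0767 to 1.28 in the PHZ-treated spleen.

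Cd36 differed far less along the same axis. In the E14.5 liver its level was 1655, 1975, 2513 and 2269 CPM over the 4 classes. It was 6043, 6463, 8952 and 9267 in the P8 marrow, and 10020.4, 11317, 12846 and 11562 in the untreated spleen. In the PHZ-treated spleen it was 7815, 11789.9, 12134 and 10887. In CPM the highest value was in the class of 5 to 9 in all of these but the P8 marrow, and the cells with none already held a high level in both spleens. The ratio of the class of 10 or more to that of none was 1.37 in the E14.5 liver, 1.53 in the P8 marrow, 1.15 in the untreated spleen and 1.39 in the PHZ-treated one. It was 5.31 in the aged marrow (337, 1226, 2169 and 1791 CPM), and 0.713 (0.446 to 1.11), not distinguishable from 1 by counting error, in the E13.5 liver. Cells with more Slc4a1 hold more transcripts, and as counts per cell Cd36 was higher at every step in the 4 sections of the smaller panel. It went from 0.239 to 0.458 in the E14.5 liver, from 0.713 to 1.49 in the P8 marrow, from 0.911 to 2.55 in the untreated spleen and from 0.692 to 2.05 in the PHZ-treated one. The ratios per cell of the outer classes were 1.92, 2.09, 2.80 and 2.96 in that order, where the value of the untreated spleen is an alternative chosen after seeing the data.

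On the CPM scale Selenbp1 was lowest in the richest class in the E14.5 liver and highest in a middle class in the P8 marrow and the PHZ-treated spleen. In the E14.5 liver it was 4822, 6126, 5132 and 2865 CPM, so that the richest class held 0.594 times (0.570 to 0.619) the level of cells with none. In the P8 marrow it was 853, 1891, 2364 and 2127, and in the PHZ-treated spleen 1381, 2974, 2978 and 2143. The untreated spleen differed, with 1049.7, 1659, 1969 and 2555 CPM and no fall at the top, though its class of 10 or more held only 851 cells. Ratios of the richest class to none were 2.49 in the P8 marrow, 2.43 in the untreated spleen and 1.55 in the PHZ-treated one. As counts per cell the richest class was the highest in these 3 sections, at 0.342 against 0.101 with none in the P8 marrow, 0.564 against 0.0954 in the untreated spleen and 0.403 against 0.122 in the PHZ-treated one, where the ratio of 3.30 passes the 2-fold rule used next. Per cell the E14.5 liver was still lowest in the richest class, at 0.832 times the cells with none. The cells without Slc4a1 differ between these organs. In the E14.5 liver they included 745 erythroid-led and 536 hepatocyte-led cells, described further on. Both groups held more Selenbp1 than the class as a whole, and their part in the ratio was not tested.

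By a rule of at least 2-fold higher in the class of 10 or more than in that of none, 1 of 3 members passed in the E14.5 liver, where 5.30% of all genes did. In the P8 marrow it was 2 of 3 against 22.4% of all genes, in the untreated spleen 2 of 3 against 6.34%, and in the PHZ-treated spleen 1 of 3 against 6.65%. On the larger panel 1 of 2 passed in the E13.5 liver against 5.73%, and 2 of 2 in the aged marrow against 8.07%. The genes were chosen on this contrast, so nothing is read from these counts. The median ratio of all genes was below 1 in all 6 sections, from 0.189 in the PHZ-treated spleen to 0.912 in the P8 marrow.

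Markers of other cells moved with these classes. From cells without Slc4a1 to those with 10 or more, the 9 endothelial markers summed to 16142 and 8036 CPM in the E14.5 liver, 9358 and 5861 in the P8 marrow, 24113 and 8544 in the untreated spleen, and 15595 and 5269 in the PHZ-treated one. The 12 markers of the C1q+ macrophage list went from 84214 to 26324 in the PHZ-treated spleen and from 9724 to 17871 in the P8 marrow. Macrophages also differed between sections within the class of 10 or more. In the untreated spleen, 85.7% of cells with 10 or more Slc4a1 also had 3 or more transcripts of C1qa, C1qb or C1qc in sum, genes of the complement component that marks the macrophages of erythroblastic islands, against 34.2% in the PHZ-treated spleen, 18.2% in the P8 marrow and 13.4% in the E14.5 liver. The C1q+ macrophage list summed to 83984 CPM in those cells of the untreated spleen, and to between 14107 and 26324 in those of the other sections of the smaller panel. The part of such mixed outlines in the class levels of Cd36 was not tested.

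**Figure D2:**
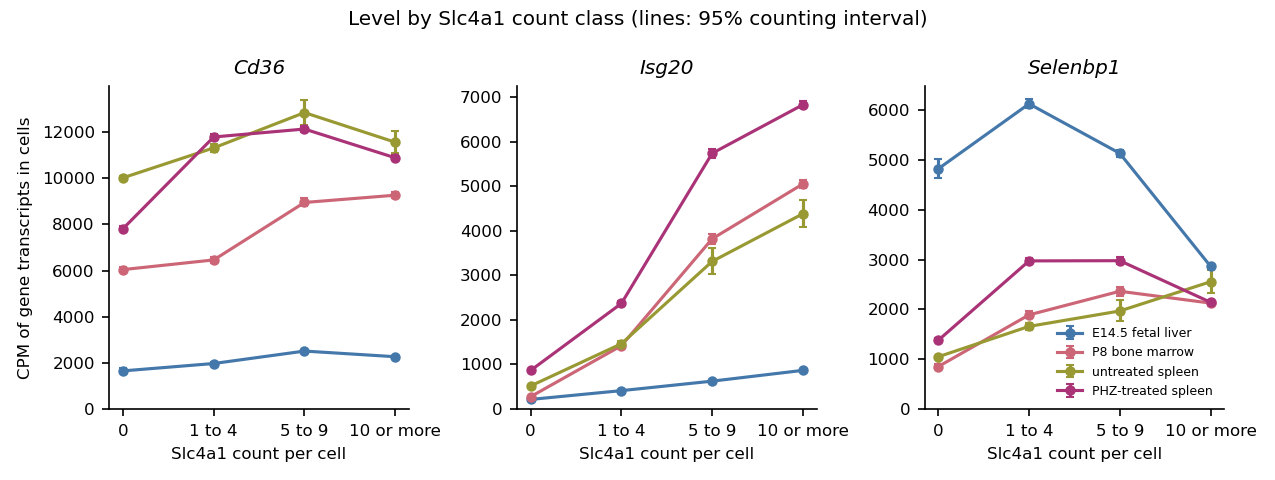
CPM of each gene in cells grouped by their Slc4a1 count, one line per section, with 95% counting intervals. Isg20 climbs at every step in each section shown, Cd36 stays within 1.15 to 1.53 times between the outer classes, and Selenbp1 falls to 2865 CPM in the richest class of the E14.5 liver.

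Kit gave a second readout, which the choice of the genes did not use but which is not separate from Slc4a1. Among cells whose leading markers were erythroid, the level was compared between cells with 0, 1 to 4 and 5 or more Kit transcripts. Selenbp1 was higher at each step of Kit in 4 of 4 sections. It went from 3005 through 5392 to 7592 CPM in the E14.5 liver, where 3179 cells had 5 or more Kit, and from 2140.0 through 3984 to 7073 in the P8 marrow. In the untreated spleen it went from 1795 through 4219 to 8260.3 (7142 to 9505, from 101 cells), and in the PHZ-treated spleen from 2291 through 4946 to 7416. Intervals of neighboring classes did not overlap in any of the 4 sections.

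On the CPM scale Cd36 and Isg20 went the other way. Cd36 went from 2489 through 1808 to 936 CPM in the E14.5 liver, from 9406 through 7987 to 5566 in the P8 marrow, from 12789 through 11511 to 6142 in the untreated spleen and from 11599 through 11064 to 8364 in the PHZ-treated spleen. Isg20 went from 864 through 585 to 385, from 4732 through 3526 to 2183, from 3309 through 2871 to 2160.4 and from 6096 through 4259.6 to 2827 in the same order of sections. In CPM all 3 genes therefore ordered the Kit classes in 4 of 4 sections, with Selenbp1 opposite to the other pair, although neighboring intervals overlapped for Isg20 in the untreated spleen. Per cell Selenbp1 kept its order, but Cd36 was higher with more Kit in the PHZ-treated spleen (72142 counts in 47660 cells without Kit, 1580 in 756 with 5 or more). Isg20 was so in the untreated spleen (1902 in 4972, 51 in 101). Cd36 had no single order per cell in the P8 marrow and the untreated spleen. Cells with more Kit were also deeper, with a median of 269 transcripts against 158 without Kit in the E14.5 liver, and the part of depth was not tested. Slc4a1 itself was lower with more Kit in the same cells. It went from 78189 through 52606 to 25465 CPM in the E14.5 liver, from 82399 through 61022 to 30648 in the P8 marrow, from 37565 through 24738 to 6523 in the untreated spleen and from 64358 through 39917 to 19305 in the PHZ-treated one, so that the Kit classes in part sort the cells by Slc4a1 again.

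Nucleus area was read within one Slc4a1 class, because the nucleus shrinks during terminal maturation. Cells with 10 or more Slc4a1 were split into 4 area groups of about equal size by nucleus area, whose medians ran from 20.1 to 41.9 µm2 in the E14.5 liver, from 19.3 to 40.2 in the P8 marrow, from 19.3 to 40.3 in the untreated spleen and from 20.9 to 44.5 in the PHZ-treated one.

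Among these cells, Cd36 in CPM was highest in the smallest nuclei. From the smallest to the largest area group it was 4136, 2626, 1649 and 1630.3 CPM in the E14.5 liver. It was 13836, 11501, 7263 and 7017 in the P8 marrow, 17555, 13896, 8119 and 9836 in the untreated spleen, and 14035, 11214, 10407 and 9449 in the PHZ-treated spleen. The smallest area group exceeded the largest by 2.54 times (2.46 to 2.62) in the E14.5 liver, 1.97 in the P8 marrow, 1.78 in the untreated spleen, 1.49 in the PHZ-treated spleen and 2.96 in the aged marrow, with every one of 4 quadrants above 1 in each of these. In cells with 1 to 4 Slc4a1 the ratio of Cd36 was 2.15 in the E14.5 liver and 1.32 in the P8 marrow, but 0.955 and 1.06 in the untreated and PHZ-treated spleens. At 10 or more, the E13.5 liver gave 1.78 with an interval of 0.597 to 5.19 from 8 and 9 counts, which does not set it apart from 1. Among genes with at least 200 counts in these cells, Cd36 was 2nd of 307 in the E14.5 liver, 2nd of 180 in the P8 marrow, 2nd of 75 in the untreated spleen, 2nd of 407 in the aged marrow and 13th of 199 in the PHZ-treated spleen. Rsad2, which encodes the interferon-induced enzyme viperin and is no member, was first in 3 of these with 2.74, 2.36 and 2.69 times, and it had 1.45 times in the PHZ-treated spleen.

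Selenbp1 was highest in the largest nuclei. It was 2156, 2257, 2585 and 3773 CPM from the smallest to the largest area group in the E14.5 liver, and 1722, 1738, 2016 and 2658 in the P8 marrow. In the untreated spleen it was 1861, 1898, 2646 and 3214, and in the PHZ-treated spleen 1779.6, 1851, 2053 and 2581. The ratio of the smallest to the largest area group was 0.571, 0.648, 0.579 and 0.689 in the same order, and 0 of 4 quadrants exceeded 1 in any of the 4 sections. The ratio was also below 1 in each of these sections for cells with 1 to 4 and 5 to 9 Slc4a1, between 0.474 and 0.890, although the interval of the untreated spleen at 1 to 4 reached 1.01.

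In Slc4a1-rich cells and on the CPM scale, Isg20 differed less with nucleus area than the other members, and not in one direction. As counts per cell, given further on, it was lower in the smallest nuclei in every section. The ratio was 1.34 (1.27 to 1.41) in the E14.5 liver, 1.13 in the P8 marrow, 1.35 in the untreated spleen, 1.30 in the aged marrow and 0.917 (0.884 to 0.951) in the PHZ-treated spleen. Quadrants of the untreated spleen ran from 0.436 to 1.54, with 2 of 4 above 1, and those of the PHZ-treated spleen from 0.847 to 1.04. In cells with 1 to 4 Slc4a1 the ratio was above 1 in every section of the smaller panel, between 1.48 in the E14.5 liver and 1.86 in the PHZ-treated spleen.

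At a ratio of at least 1.5, 1 of 3 members (Cd36) was higher in the smallest nuclei in the E14.5 liver, the P8 marrow and the untreated spleen, where 4.89%, 2.22% and 2.67% of all genes were, and 1 of 2 in the aged marrow, against 7.86%. In the PHZ-treated spleen 0 of 3 were, against 3.52%. In the E13.5 liver, where 9.26% of genes passed, neither member had the 200 counts that were asked for. Selenbp1 ranked near the other end, at 284th of 307, 162nd of 180, 65th of 75 and 176th of 199 in the 4 sections of the smaller panel. Of the erythroid genes listed beside the members, the 4 genes of erythroid regulators and the erythropoietin receptor (Klf1, Gata1, Hemgn, Epor) and the 4 cell cycle genes were below 1 in 4 of 4 sections of the smaller panel, with Klf1 at 0.669 in the E14.5 liver. Of all genes read, 179 of 307, 122 of 180, 45 of 75 and 104 of 199 were below 1 in these sections. The 5 heme and iron genes had 4 or 5 members above 1, and Kit was at 0.359 in the E14.5 liver and 0.551 in the PHZ-treated spleen. Slc4a1 itself was in CPM 1.42 times higher in the smallest area group of the E14.5 liver and 1.40 times in that of the PHZ-treated spleen. The class is cut on the raw Slc4a1 count and small nuclei hold fewer transcripts, so nothing is read from these 2 ratios. As counts per cell Slc4a1 was lower in the smallest area group, at 13.9 against 20.6 in the E14.5 liver and 12.9 against 18.6 in the P8 marrow.

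The scale matters for these ratios, because cells with small nuclei hold fewer transcripts, with medians of 132 against 277 between the outer area groups of the E14.5 liver and 128 against 251 in the PHZ-treated spleen. As mean counts per cell instead of CPM, Cd36 was 1.20 times higher in the smallest area group of the E14.5 liver, 1.02 times in the P8 marrow and 0.757 times in the PHZ-treated spleen, and Isg20 was below 1 in each, at 0.635, 0.586 and 0.467. Selenbp1 was lower still, at 0.271, 0.335 and 0.351. The ratios per cell of the untreated spleen, computed as an alternative chosen after seeing the data, were 0.864 for Cd36, 0.656 for Isg20 and 0.280 for Selenbp1, so that Cd36 was below 1 in both spleens. In the aged marrow Cd36 was at 0.612 counts per cell in the smallest against 0.393 in the largest nuclei, and Isg20 at 0.764 against 1.11. Macrophage and endothelial genes were also somewhat higher in the smallest area group of the E14.5 liver, at 18647 against 12074 and 9423 against 8634 CPM for the lists. The macrophage list was also higher there in the other sections, for example at 3894 against 2551 in the aged marrow, while the endothelial list was lower there in both spleens, at 7754 against 10196 in the untreated one and 5389 against 6051 after PHZ. In cells with no count of either C1q or endothelial genes, an alternative chosen after seeing the data, the Cd36 ratio was 3.63 in the E14.5 liver, 2.15 in the P8 marrow and 1.52 in the PHZ-treated spleen. In the range of 10 to 14 Slc4a1, also chosen afterwards, it was 2.06, 1.83 and 1.42, and 1.53 in the untreated spleen.

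**Figure D3:**
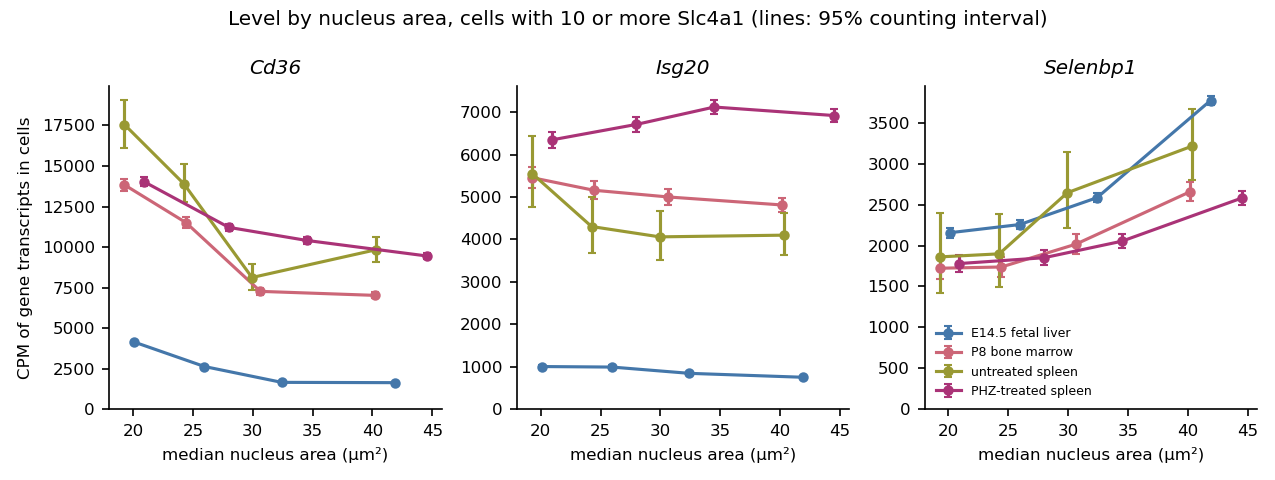
CPM of each gene in area groups among cells with 10 or more Slc4a1, at the median area of each group in µm2, with 95% counting intervals. Cd36 is lower in the largest than in the smallest area group in each section, Selenbp1 is higher, and Isg20 differs less, with the PHZ-treated spleen between 6344 and 7119 CPM.

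The members also shared cells unevenly. Among cells with 10 or more Slc4a1, those with Selenbp1 held less Cd36 than those without it. The level of Cd36 was 1758 against 2645 CPM in the E14.5 liver, where the cells with Selenbp1 were deeper, at medians of 224 against 174 transcripts, 7330.1 against 10089 in the P8 marrow, 10559 against 12256 in the untreated spleen and 9731 against 11508 in the PHZ-treated spleen. Within the smallest area group the order was the same in 3 of the 4 sections and the other way in the untreated spleen, at 21001 (17962 to 24406) with Selenbp1 against 16440.4 (14861 to 18142) without, where the intervals overlapped. Over all area groups, cells with Isg20 had 2289 CPM of Cd36 against 2267 without it in the E14.5 liver, 9242 against 9405 in the P8 marrow and 10769 against 11395 in the PHZ-treated spleen. Within area groups some differences were wider. The level with Isg20 was 4783 against 4049.5 CPM in the smallest nuclei of the E14.5 liver, and 8769.6 against 12314 in the largest of the untreated spleen. Isg20 was lower where Selenbp1 was present in the E14.5 liver, at 755 against 953, and within counting error of equal in the PHZ-treated spleen, at 6874 against 6823. The total of a cell was taken without the gene that split the cells.

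Outside the erythroid lineage the genes parted. Cells without Slc4a1 were assigned to the 1 of 14 marker lists with the most counts, given at least 5, and a group of at least 50 cells was read. The level of Hbb-bt, an adult beta-globin gene, in the same cells shows how much erythroid RNA lay in their outlines.

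Cd36 was highest in cells led by fat markers. In the untreated spleen, 353 such cells held 58322 CPM, and 95.8% of them had at least 1 transcript. Hbb-bt in these cells was at 919 CPM, against 2616 in endothelial-led cells of the section.

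Endothelial-led cells came next. They held 14923 CPM of Cd36 in the E14.5 liver (99 cells), 21640.3 in the P8 marrow (94 cells), 24494 in the untreated spleen (5192 cells) and 30953 in the PHZ-treated spleen (681 cells). In each of the 4 sections this was above the level of cells with 10 or more Slc4a1, and in the aged marrow 85 endothelial-led cells held 2760.3 CPM, above the 1791 of all Slc4a1-rich cells there but below the 3328 of those with the smallest nuclei. Of these 85 cells, 67 had only 5 or 6 marker counts, and 6 of the 9 endothelial markers were on that panel. Skeletal muscle-led cells beside the P8 marrow held 14304 CPM. C1q+ macrophage-led cells held 7836 in the E14.5 liver, 15149.8 in the P8 marrow, 8043 in the untreated spleen and 7878 in the PHZ-treated one.

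Cd36 was lowest in cartilage-led cells of the P8 marrow, and whether these were stray transcripts was not tested. They held 147 CPM, and 1.43% of them had a transcript at a median depth of 80, against 62.6% of cells with 10 or more Slc4a1 at a median of 150. T cell-led cells of the spleens held 3647 and 3086 CPM, and hepatocyte-led cells of the E14.5 liver 813. Cells of the untreated spleen with no leading list, 35070 in number, held 11546 CPM, or 25494 of the 106124 Cd36 transcripts in cells of that section.

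Isg20 was low in nearly all of these cells. Stromal-led cells held 32.8 CPM in the E14.5 liver and 109 in the P8 marrow, and skeletal muscle-led cells 42.3. Endothelial-led cells had no Isg20 transcript in the E14.5 liver or the P8 marrow, where 3 counts would be 236 and 296 CPM, and 223 CPM in the untreated spleen. The share of cells with Isg20 was 0.532% in stromal-led cells of the E14.5 liver, at a median depth of 151, against 15.2% of cells with 10 or more Slc4a1 at 190. Erythroid-led cells without Slc4a1 held 361, 1936, 1557 and 1892 CPM in the E14.5 liver, P8 marrow, untreated and PHZ-treated spleen. Cells with 1 to 4 Slc4a1 held 414, 1421, 1465 and 2369 in the same order, so the erythroid-led cells lay above them in the P8 marrow and untreated spleen. Asking for at least 10 marker counts gave 2453 in erythroid-led cells of the untreated spleen, where 728 of the 1570 cells had only 5 or 6.

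Megakaryocyte-led cells were the highest of the other named groups in 4 of 4 sections of the smaller panel. They held 1102 CPM of Isg20 in the E14.5 liver (653 to 1742), 1162 in the P8 marrow (651 to 1917), 819 in the untreated spleen and 1205 in the PHZ-treated one, each from 15 to 111 counts. In the E14.5 liver their level was above that of erythroid-led cells without Slc4a1, and its interval includes the 868 of the richest Slc4a1 class. Hbb-bt in the same cells ranged from 2909 to 18803 CPM, and the part of neighboring erythroid cells was not tested. Cartilage-led cells of the P8 marrow held 623 CPM of Isg20 and 701 of Hbb-bt, and the source of this Isg20 was not tested.

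Selenbp1 was also read in cells led by markers of other lineages. Hepatocyte-led cells of the E14.5 liver, 536 in number, held 8818 CPM, and 67.9% of them (63.8% to 71.8%) had a transcript at a median depth of 125. Hbb-bt in the same cells was at 20166 CPM, and the part of erythroid RNA, or of Selenbp2 read by the same probes, was not tested. Erythroid-led cells without Slc4a1 in the same section held 8322, together with 11366 CPM of Kit, 24415 of Klf1 and 33228 of Hbb-bt. In the P8 marrow, untreated and PHZ-treated spleen the erythroid-led cells without Slc4a1 held 5019.7, 2740.8 and 4887 CPM, more than any Slc4a1 class of the same section, although the interval of the untreated spleen (2489 to 3012) includes the 2555 of its richest class. With at least 10 marker counts the level in the untreated spleen was 5499 CPM.

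Fat-led cells of the untreated spleen held 6640.9 CPM of Selenbp1, and 68.0% of them (62.8% to 72.8%) had a transcript at a median depth of 243. Stromal-led cells held 2617 CPM in the E14.5 liver, 901 in the P8 marrow, 2902 in the untreated spleen and 1888 in the PHZ-treated one. The lowest levels were in T cell-led cells of the spleens, at 389.6 and 364 CPM, and in cartilage-led cells, at 305. In the T cell-led cells of the untreated spleen 3.41% had a transcript at a median depth of 86. Leaving out cells that lay within 15 µm of a cell with 5 or more Slc4a1 moved 6 of the 101 group levels that could still be computed by more than 1.5 times, and none of those named above. In the E14.5 liver only stromal-led cells were numerous enough for this, so the hepatocyte-led and erythroid-led levels there have no such value.

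**Figure D4:**
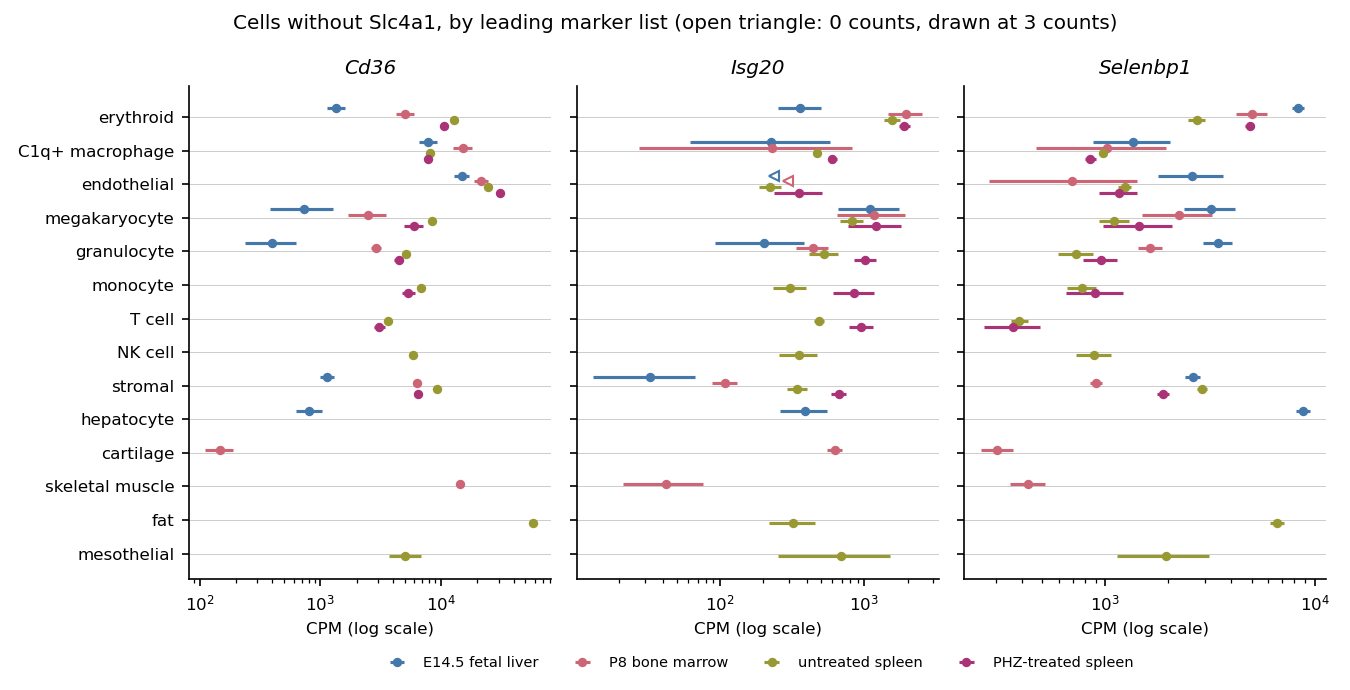
CPM on a log scale in cells without Slc4a1, grouped by the marker list with the most counts, with 95% counting intervals and colors for the 4 sections of the smaller panel. Cd36 peaks in fat-led and endothelial-led cells, Isg20 is highest in erythroid-led and megakaryocyte-led cells, and Selenbp1 in hepatocyte-led, erythroid-led and fat-led cells.

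The spleens were compared last. PHZ-treated over untreated spleen, over all cells, Cd36 was 1.03 times (1.02 to 1.04), Isg20 5.46 times (5.33 to 5.60) and Selenbp1 1.96 times (1.92 to 2.01). The direction of Cd36 depended on the processing. It was at 1.30 per cell, and below 1 for transcripts over the nucleus and at a quality score of at least 30. The quadrants of Cd36 overlapped, at 8620.3 to 11753 against 9513 to 10888 CPM. Those of Isg20 did not, at 2642 to 5131 against 541 to 839, nor did those of Selenbp1, at 1773 to 2838 against 968 to 1357. At a ratio of at least 2 in CPM, 1 of 3 members was higher after PHZ, against 12.8% of all genes. Per cell Selenbp1 was at 2.49 and would pass too, where the share of all genes was not computed. The median gene was at 0.730 times, so that Cd36, though level in CPM, ranked 125th of 475, with Isg20 28th and Selenbp1 64th.

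The mix of cells differed between the spleens. Cells with 10 or more Slc4a1 went from 0.786% to 21.3% of cells and cells without Slc4a1 from 88.7% to 35.1%. Giving the untreated levels of each class the PHZ mix of transcripts raised Isg20 by 3.38 times, Selenbp1 by 1.59 times and Cd36 by 1.11 times. The remaining factors, at an unchanged mix, were 1.61 for Isg20, 1.23 for Selenbp1 and 0.928 for Cd36.

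Within the classes Isg20 was the member that stayed higher after PHZ throughout. Its ratio was 1.67 in cells without Slc4a1, 1.62 at 1 to 4, 1.73 at 5 to 9 and 1.56 (1.45 to 1.67) at 10 or more, and the quadrants of the spleens did not overlap in any class. Selenbp1 was at 1.32, 1.79, 1.51 and 0.839 (0.765 to 0.922), with quadrants apart at 1 to 4 and 5 to 9 and overlapping in the outer classes. In cells with 10 or more Hbb-bt in place of Slc4a1 its ratio was 1.16, so that the direction at the top depends on the gene that sets the class. Cd36 was at 0.780, 1.04, 0.945 and 0.942, with quadrants overlapping in every class. In the same order of classes, 21.8%, 20.3%, 21.4% and 18.9% of all genes were at least 2-fold higher, and 0 of 3 members were in any class. The median gene was at 1.40, 0.989, 0.749 and 0.871, so that Isg20 ranked 180th of 472, 113th of 423, 79th of 327 and 90th of 350, and Selenbp1 at 1.32 lay below the median gene in cells without Slc4a1. Erythroid RNA was itself higher within classes after PHZ, with Hbb-bt at 2.39 times in cells without Slc4a1 and Slc4a1 at 1.54 times at 1 to 4 and 1.31 at 5 to 9. Its part in the values of Isg20 was not tested.

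C1q+ macrophage markers moved with this comparison. They summed to 83984 CPM in Slc4a1-rich cells of the untreated and 26324 in those of the PHZ-treated spleen. In cells below that limit of 3 C1q transcripts, the ratio at 10 or more Slc4a1 was 0.705 for Cd36 and 0.983 for Selenbp1. The limit left out 85.7% of the 851 such cells of the untreated and 34.2% of those of the PHZ-treated spleen, so few untreated cells carry these ratios. Their part in the values of Cd36 and Selenbp1 was not tested further.

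Other genes of the same pathways differed between the spleens, over all cells. The 4 genes of regulators and receptor (Klf1, Gata1, Hemgn, Epor) were all at least 2-fold higher, with a median of 17.1 times, as were the 5 heme and iron genes (median 3.99), the 4 cell cycle genes (median 5.70) and 6 of 7 membrane and globin genes with Plek2 (median 11.2). Of the 6 progenitor-stage genes 4 were, while Kit was at 0.995. Of 8 interferon-linked genes, the pathway that gives Isg20 its name, 1 was at least 2-fold higher and 5 lower, with a median of 0.379, against 0.730 for all genes, of which 27.8% were at least 2-fold lower. The one was Rsad2, at 8.95 times, from 1476 to 13218 CPM, while Psmb8, a subunit of the immunoproteasome, was at 0.276 and Epsti1 at 0.253. At 10 or more Slc4a1 fewer genes of these lists passed, where 18.9% of all genes did, against 12.8% over all cells. They were 1 of 4 regulators (median 1.67), 0 of 5 heme and iron genes (1.32), 1 of 7 membrane and globin genes (1.37), 2 of 4 cell cycle genes (1.77) and 3 of 6 progenitor-stage genes (1.88). Of the interferon-linked genes 0 were higher and 4 lower there, with a median of 0.506, where 30.3% of all genes were lower by that rule. Over all cells, of 8 lipid-linked genes, chosen beside Cd36, 2 were at least 2-fold higher and 2 lower. Mgll, which encodes the lipase that splits monoacylglycerols, was at 2.09 times.

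**Figure D5:**
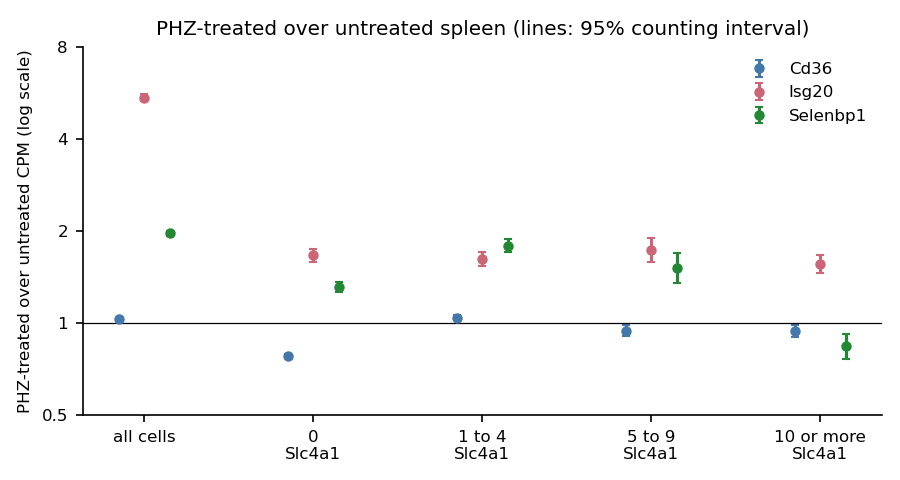
Ratio of CPM between the PHZ-treated and the untreated spleen on a log scale, for all cells and for each Slc4a1 class, with 95% counting intervals. Isg20 goes from 5.46 over all cells to between 1.56 and 1.73 within classes, Cd36 lies between 0.780 and 1.04, and Selenbp1 is at 0.839 at 10 or more Slc4a1, against 1.16 where Hbb-bt sets the class.

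The position of single transcripts was read on the smaller panel. In cells with 10 or more Slc4a1, the share of Isg20 transcripts over the nucleus was 60.8% in the E14.5 liver, 60.8% in the P8 marrow, 61.2% in the untreated spleen and 60.2% in the PHZ-treated one. The intervals of Isg20 overlapped in all 4 sections. Selenbp1 was at 47.3% in the E14.5 liver (46.8% to 47.9%), 56.5% in the P8 marrow, 59.0% in the untreated spleen and 49.5% in the PHZ-treated spleen. All transcripts together were at 58.7%, 62.1%, 59.3% and 56.9%, and the median gene at 58.3%, 55.2%, 53.9% and 46.7%. Selenbp1 thus lay below the median gene in the E14.5 liver and above it in both spleens, while its interval in the P8 marrow, 55.1% to 58.0%, included the median gene. Cd36 went from 65.0% in the P8 marrow and 65.1% in the untreated spleen to 56.9% in the E14.5 liver and 50.8% (50.3% to 51.3%) in the PHZ-treated spleen. Outlines were expanded nuclei, so that a transcript counted outside the nucleus can belong to a neighboring cell.

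Genes were last ranked by how closely their level followed that of each member over 16 points, the 4 Slc4a1 classes in the 4 sections of the smaller panel, as Pearson's r of log2(CPM + 1) over 430 genes with at least 1000 counts. The points share sections and depth, and r is a description. Ctse, which encodes cathepsin E, followed Isg20 most closely, with r = 0.98, before Rsad2 with 0.90 and Mgll with 0.83. Ctse ran from 683 to 40795 CPM across the classes of the P8 marrow, where Isg20 ran from 278 to 5049.6. Rsad2 was also nearest to Cd36, with r = 0.88, followed by Il1b, an inflammatory cytokine gene, and Slamf7, an immune cell receptor gene, both with 0.87. For Selenbp1 the nearest were the erythropoietin receptor gene Epor with 0.81, Stmn1, which encodes a microtubule-destabilizing protein of dividing cells, with 0.80, and Klf1, a master regulator of globin genes, with 0.80. Among the members, r was 0.73 for Cd36 and Isg20, -0.60 for Cd36 and Selenbp1, and -0.05 for Isg20 and Selenbp1.

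Selenbp1 has a close relative, Selenbp2, on the same chromosome at 94693573 to 94704406 (GRCm38.p6), with Selenbp1 at 94933083 to 94944758. Probe sequences were not used here, so that transcripts of Selenbp2 read by the same probes cannot be told apart from those of Selenbp1. Selenbp2 is known to be abundant in liver.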

How the data were processed

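A set of 6 wild-type mouse sections, 1 per condition, was profiled with Xenium. The authors deposited, per section, transcript counts per gene and cell without normalization, as Xenium Onboard Analysis 1.7.1.0 (smaller panel) or 3.1.0.4 (larger panel) made them, and nucleus areas. For the smaller panel the deposited transcript tables also hold a quality score per transcript. Counts rebuilt from them at a score of at least 20 matched the deposited counts. Cells with at least 5 detected genes were kept. Counts were summed per group and given as CPM. Ratios have exact conditional binomial intervals and shares exact binomial intervals, at 95% confidence. They cover counting error only. No test was possible with 1 section per condition. The intervals of the ratio between the spleens over all cells were tested on simulated data, where they covered the made ratio for 94.9% to 100.0% of genes at each size of change. The simulated counts had counting error only, so this checks the computation and says nothing about spread between regions or sections. Cells were called by their leading marker list and given no cell type name. Doublets were not called. Genes were named if they were members, on lists of erythroid, interferon-linked, lipid-linked and cell cycle genes, or among the 3 nearest by r. The members and lists were chosen with earlier results of these data known. Alternatives changed scaling, total, stage axis, depth, quality score, mixed cells and neighbors. Python 3.11.15, numpy 2.4.6, scipy 1.17.1 and pandas 2.3.3 were used.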

Additional observations from a re-analysis of the deposited data

Results flagged for a closer look

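The ratio of Isg20 between the smallest and the largest nuclei of cells with 10 or more Slc4a1 was 0.917 on the CPM scale in the PHZ-treated spleen and above 1 in the other sections. In the E13.5 liver its interval of 0.322 to 4.33, from 5 and 8 counts, included 1, and in the untreated spleen 2 of 4 quadrants were above 1. Per cell, the level was lower in the smallest nuclei in each of the 6 sections, the PHZ-treated spleen included. The difference between sections was not tested. Selenbp1 was lower in cells with 10 or more Slc4a1 than in cells with none in the E14.5 liver, at 0.594 times, and higher in the P8 marrow and both spleens. This difference was not tested either.

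Transcripts that lay outside every cell outline were used in no comparison above. In the untreated spleen, 4.75% of Isg20 transcripts (4.30% to 5.24%) lay outside cells, the 4th highest share of 293 genes, against 0.595% of all transcripts. Cd36 had 0.887% and Selenbp1 1.00% there. In the PHZ-treated spleen 2.74% of Cd36 and 2.47% of Isg20 transcripts lay outside cells, against 1.73% of all. Slc4a1 and Hbb-bt had 2.67% and 2.69% in the untreated and 2.16% and 2.76% in the PHZ-treated spleen. In the E14.5 liver and the P8 marrow none of the 3 genes exceeded the share of all transcripts, which was 2.83% and 10.6%. The median gene was at 1.49% in the E14.5 liver, below Cd36 (2.83%), Isg20 (2.36%) and Selenbp1 (1.87%). In the P8 marrow it was at 4.11%, above all 3.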

How the results depend on the processing

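No paired analysis was possible because each condition has 1 section. Per cell in place of CPM, the ratios between the spleens over all cells were 1.30 for Cd36, 6.92 for Isg20 and 2.49 for Selenbp1, and at 10 or more Slc4a1 0.803, 1.33 and 0.715. Per cell, the ratios of 10 or more Slc4a1 to none were 1.92, 5.62 and 0.832 in the E14.5 liver, 2.09, 24.8 and 3.40 in the P8 marrow, 2.96, 16.8 and 3.30 in the PHZ-treated spleen and, added after seeing the data, 2.80, 20.5 and 5.91 in the untreated spleen. Per cell, the ratios of the smallest to the largest nuclei were 1.20, 0.635 and 0.271 in the E14.5 liver, 1.02, 0.586 and 0.335 in the P8 marrow, and 0.757, 0.467 and 0.351 in the PHZ-treated spleen, so that Isg20 turned below 1 in the E14.5 liver and P8 marrow and Cd36 in the PHZ-treated spleen. In the untreated spleen, added after seeing the data, they were 0.864, 0.656 and 0.280, so that Cd36 lost its direction in both spleens and Isg20 turned below 1 there too. Over all cells of the spleens, leaving Hbb-bt and Slc4a1 out of the total gave 1.11, 5.90 and 2.12, transcripts over the nucleus gave 0.928 for Cd36 and 6.97 for Isg20, and a quality score of at least 30 gave 0.879, 5.96 and 2.04, so that Cd36 turned below 1 in the last 2. At 10 or more Slc4a1 the nucleus gave 0.746 for Cd36 and 0.675 for Selenbp1, fewer than 3 C1q counts 0.705 and 0.983, and 10 or more Hbb-bt in place of Slc4a1 1.16 for Selenbp1, which turned above 1. With Hbb-bt classes the ratios of 10 or more to none were 1.09, 2.36 and 0.887 in the E14.5 liver, 1.79 for Cd36 in the P8 marrow, and 1.63, 6.88 and 2.59 in the PHZ-treated spleen. Thinned to 50 transcripts, the E14.5 liver gave 1.49 for Cd36 and 0.536 for Selenbp1. For nuclei, fewer than 3 C1q counts gave 2.65 for Cd36 in the E14.5 liver and 1.58 in the PHZ-treated spleen, and areas under 25 over 40 µm2 or more gave 1.48 for Isg20 and 0.519 for Selenbp1 in the E14.5 liver. Of the alternatives chosen after seeing the data, no C1q and no endothelial counts gave 3.63 and 2.15 for Cd36 in the E14.5 liver and P8 marrow, and 0.629, 0.721 and 0.823 for Selenbp1 in these and the PHZ-treated spleen, and could give no value in the untreated spleen, where too few counts were left. The range of 10 to 14 Slc4a1 gave 2.06, 1.83, 1.53 and 1.42 for Cd36 in the 4 sections, 1.51 for Isg20 in the E14.5 liver, and 0.472 and 0.601 for Selenbp1 in the E14.5 liver and PHZ-treated spleen. The cause of these moves was not tested. Of 215 alternative levels in cells without Slc4a1, 153 lay within the counting interval and at least 10 marker counts moved 6 of 111 by more than 1.5 times, among them Isg20 and Selenbp1 in erythroid-led cells of the untreated spleen, to 2453 and 5499 CPM. The E13.5 liver is limited by its 5254 cells, and the outer groups of nucleus area there held 5 to 9 counts of Cd36 or Isg20.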
